A study of Camellia sinensis var. assamica with 4 samples.

Results

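The genes described here are 3 homologs of Arabidopsis proteins that bring the plant-specific RNA polymerases Pol IV and Pol V to their target loci. They are CLSY1/CLSY2 (identifier CSA023919) and SHH1/SHH2 (CSA015026), which the study assigned to the recruitment of Pol IV, and DMS3 (CSA003130), which it assigned to the recruitment of Pol V. The genes were taken by identifier and assigned role from the 37 DNA methylation pathway genes that the study identified in tea, and all 3 are among the 27554 genes of the expression table. The study identified a single tea gene for CLSY1 and CLSY2 and a single one for SHH1 and SHH2, so the values do not separate the Arabidopsis family members.

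Expression was measured by RNA-seq of poly(A) RNA from young leaf of tea, Camellia sinensis var. assamica, in 2 replicates of a single group, with no treatment named in the labels. The bisulphite sequencing of the same tissue was not analysed here. The sample labels give neither the age of the plants nor what separates the replicates, and the library protocol speaks of 3 pooled libraries while 2 RNA-seq samples are listed. The spread given below is therefore that between 2 libraries and may be technical. The tissue label was not checked against leaf markers, since the identifiers outside the 37 pathway genes carry no names here.

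In Arabidopsis, RNA-directed DNA methylation (RdDM) uses both polymerases. Pol IV transcribes precursors that RDR2 makes double-stranded and DCL3 cuts into small RNAs, and AGO4 carries these small RNAs to scaffold transcripts made by Pol V, where DRM2 methylates the DNA. SHH1 reads methylated histone tails through its SAWADEE domain and brings Pol IV to chromatin, and the CLSY proteins are SNF2-type chromatin remodellers that are needed for this step. DMS3 is an SMC hinge-domain protein that works with the remodeller DRD1 and with RDM1 in the DDR complex. The DDR complex associates with Pol V, and SUVH2 and SUVH9 guide Pol V to DNA that is already methylated.

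The 3 recruitment genes fell into a high and a low level. The CLSY1/CLSY2 homolog was expressed at about 4 times the level of the SHH1/SHH2 homolog and well above DMS3. SHH1/SHH2 and DMS3 lay close together below the median gene of the table, at 0.614 to 0.804 of its level. The levels are in FPKM, fragments scaled both by gene length and by the size of the library, so that genes can be set side by side. Ratios between genes still depend on the lengths used in the scaling and on the reads dropped for lack of a unique position. Neither was checked for these genes. In whole leaf tissue, a lower level from fewer expressing cells and one from less RNA per cell cannot be told apart.

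CLSY1/CLSY2, the remodeller homolog on the Pol IV side, reached 12.8 FPKM in replicate 1 and 10.3 FPKM in replicate 2, a mean of 11.6 ± 1.79 (SD, n = 2). The lower of these values was still above both values of SHH1/SHH2 and of DMS3. SHH1/SHH2, the homolog of the histone reader, was at 2.75 FPKM in replicate 1 and 2.96 FPKM in replicate 2, a mean of 2.86 ± 0.153 (SD, n = 2). DMS3, the hinge-domain protein of the Pol V side, was at 2.93 FPKM in replicate 1 and 3.61 FPKM in replicate 2, a mean of 3.27 ± 0.483 (SD, n = 2). DMS3 was above SHH1/SHH2 within each library, but the values of both genes overlapped across the libraries, since SHH1/SHH2 in replicate 2 was above DMS3 in replicate 1. The order of the levels was thus CLSY1/CLSY2 over DMS3 over SHH1/SHH2, with only the step to CLSY1/CLSY2 wider than the spread between the replicates.

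The rank of each gene among all 27554 listed genes showed the same step. CLSY1/CLSY2 was at rank 7539 by mean FPKM and 72.6% of the genes had a lower value, with 74.9% in replicate 1 and 69.97% in replicate 2. DMS3 was at rank 15653, with 43.2% of the genes below it by the mean, 41.2% in replicate 1 and 45.2% in replicate 2. SHH1/SHH2 was at rank 16416, with 40.4% of the genes below it by the mean, 40.01% in replicate 1 and 41.4% in replicate 2. Thus CLSY1/CLSY2 ranked in the upper part of the table in both libraries, and the other genes somewhat below its middle in both. These percentages depend on the genes ranked. Among genes that averaged 1 FPKM or more, 63.5% were below CLSY1/CLSY2, 24.3% below DMS3 and 20.6% below SHH1/SHH2, while genes at 0 in both replicates, of which the table holds none, would raise the percentages.

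Set against the median gene, at 4.47 FPKM in replicate 1 and 4.49 FPKM in replicate 2, CLSY1/CLSY2 was 2.87 times as high in replicate 1 and 2.29 times in replicate 2. DMS3 reached 0.654 and 0.804 of the median gene, and SHH1/SHH2 reached 0.614 and 0.660. Between SHH1/SHH2 and DMS3 lay 762 genes by mean FPKM, or 2.77% of the table, but this gap held 319 genes in replicate 1 alone and 1060 in replicate 2 alone. Between DMS3 and CLSY1/CLSY2 lay 8113 genes by mean FPKM, or 29.4%, with 9302 in replicate 1 and 6811 in replicate 2. The study sorted genes into 5 expression groups, the first under an FPKM of 0.5 and the others of equal size. By the same rule, CLSY1/CLSY2 fell into group 4 and both SHH1/SHH2 and DMS3 fell into group 3, and none of these genes changed group when each replicate was grouped alone.

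**Figure D1:**
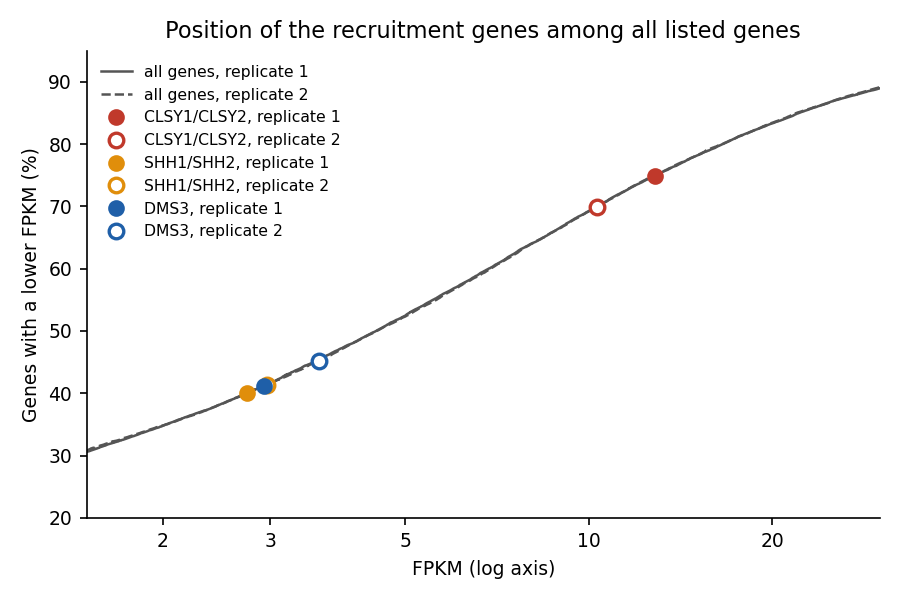
Percent of all listed genes with a lower FPKM (vertical axis) against FPKM on a log axis, with the curve of all genes in each library and the recruitment genes as points, filled for replicate 1 and open for replicate 2. CLSY1/CLSY2 sits at 74.9% and 69.97%, while SHH1/SHH2 and DMS3 sit together between 40.01% and 45.2%.

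The study lists 2 genes for Pol IV recruitment, and the ratio between them was taken within each library. CLSY1/CLSY2 was 4.67 times SHH1/SHH2 in replicate 1 and 3.47 times in replicate 2, with a geometric mean of 4.03 (log2 ratio 2.01 ± 0.30, SD, n = 2). The remodeller homolog was therefore the higher of the pair in both libraries, by more than the replicates of either gene differed. With 2 libraries no exact test can reach a p under 0.05, since the smallest two-sided p of a sign-flip permutation test is 0.5, and no test was run on any ratio.

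Across the polymerases, CLSY1/CLSY2 was 4.39 times DMS3 in replicate 1 and 2.85 times in replicate 2, with a geometric mean of 3.54 (log2 ratio 1.82 ± 0.44, SD, n = 2). SHH1/SHH2 was 0.939 of DMS3 in replicate 1 and 0.821 in replicate 2, with a geometric mean of 0.878 (log2 ratio -0.19 ± 0.14, SD, n = 2). The Pol IV side was thus well above DMS3 by its remodeller homolog and slightly below it by its histone reader homolog. The mean FPKM of both Pol IV recruitment genes was 2.66 times DMS3 in replicate 1 and 1.84 times in replicate 2, although SHH1/SHH2 by itself was below DMS3. This mean is mostly set by CLSY1/CLSY2. Over both libraries the ratio was 2.21, and it was 1.76 with the geometric mean of both Pol IV recruitment genes.

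The ratio of CLSY1/CLSY2 to DMS3 was also the least stable of those between the 3 genes, as it differed 1.54-fold between the libraries. CLSY1/CLSY2 was lower in replicate 2 and DMS3 was higher, so both shifts moved the ratio the same way. Over all 666 pairs of the 37 pathway genes, which share genes and are no independent set, the median ratio differed 1.14-fold between the libraries, and 4.65% of the pairs differed more than CLSY1/CLSY2 and DMS3. The ratio of CLSY1/CLSY2 to SHH1/SHH2 differed 1.34-fold and was exceeded by 13.1% of the pairs. The ratio of SHH1/SHH2 to DMS3 differed 1.14-fold, close to the median pair.

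DMS3 is 1 of 4 genes that the study lists for Pol V recruitment, and it was the lowest of them in each replicate. SUVH2/9 (CSA033444), the homolog of the proteins that bind methylated DNA, reached 14.7 FPKM in replicate 1 and 15.4 FPKM in replicate 2. DRD1 (CSA033157), the remodeller of the DDR complex, had 6.50 and 6.35 FPKM. RDM1 (CSA033069), the small protein of that complex, had 6.205 and 4.89 FPKM. None of these values overlapped with those of DMS3, which reached 3.61 at most.

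Within a library, DMS3 was at 0.199 of SUVH2/9 in replicate 1 and 0.234 in replicate 2. Against DRD1, its ratio was 0.450 in replicate 1 and 0.568 in replicate 2. Against RDM1, it was 0.472 and 0.739, a 1.57-fold shift between the libraries, as RDM1 was lower in replicate 2 while DMS3 was higher. The transcripts of the DDR complex were therefore unequal in both libraries, with DMS3 at 0.739 of its partners or less.

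The comparison between both sides depended on which genes stood for the Pol V side. The mean of both Pol IV recruitment genes was above DMS3, DRD1 and RDM1 taken one by one in both libraries, but below SUVH2/9. With the mean of all 4 Pol V recruitment genes in place of DMS3, its ratio was 1.03 in replicate 1 and 0.877 in replicate 2. The geometric mean was 0.950 (log2 ratio -0.07 ± 0.16, SD, n = 2). The replicates then lay on both sides of a ratio of 1. The mean of the 4 genes included SUVH2/9, the highest of them, at 14.7 FPKM in replicate 1 and 15.4 FPKM in replicate 2. CLSY1/CLSY2 alone was still above this mean, with ratios of 1.69 in replicate 1 and 1.36 in replicate 2. SHH1/SHH2 was below it, with 0.363 and 0.392. The highest gene of either side was SUVH2/9, at 1.14 times CLSY1/CLSY2 in replicate 1 and 1.495 times in replicate 2.

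**Figure D2:**
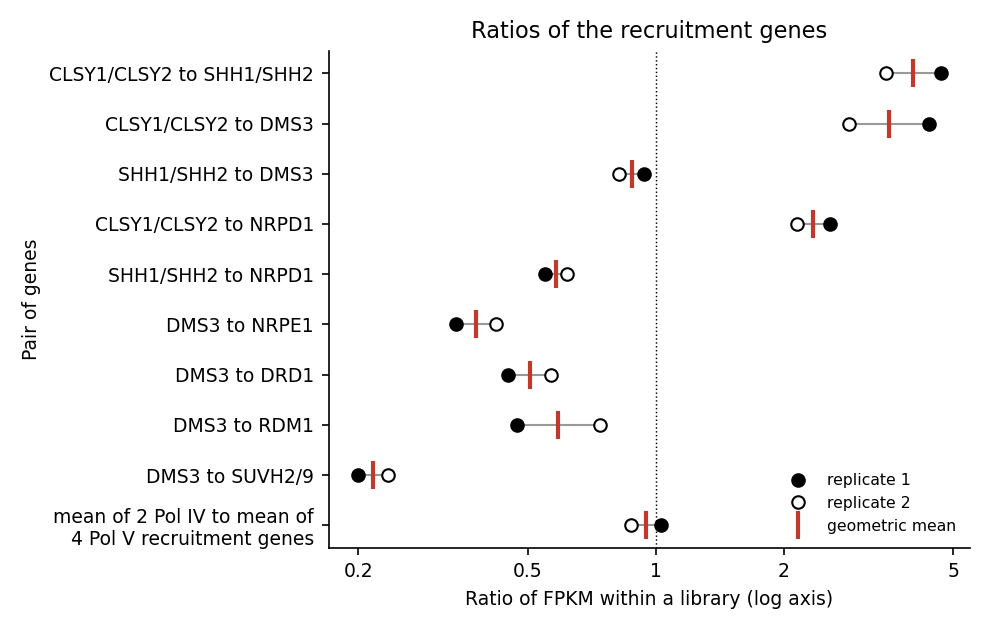
Ratio of the FPKM of the first to that of the second gene of each pair within a library, on a log axis, with replicate 1 filled, replicate 2 open, the geometric mean of both as a red bar and a dotted line at a ratio of 1. CLSY1/CLSY2 lies above SHH1/SHH2, DMS3 and NRPD1 in both libraries, DMS3 lies below NRPE1 and its Pol V recruitment partners, and the ratio of the 2 Pol IV to the 4 Pol V recruitment genes lies at 1.03 and 0.877.

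The recruitment genes were also set beside the polymerase they serve. For Pol IV, the largest subunit NRPD1 (CSA001027) stood at 5.001 FPKM in replicate 1 and 4.80 in replicate 2, which is between both Pol IV recruitment genes. CLSY1/CLSY2 was 2.57 times NRPD1 in replicate 1 and 2.15 times in replicate 2, while SHH1/SHH2 was at 0.549 and 0.618 of it. For Pol V, the largest subunit NRPE1 (CSA002792) stood at 8.63 and 8.58 FPKM, and DMS3 was at 0.339 of it in replicate 1 and 0.421 in replicate 2. SHH1/SHH2 and DMS3 were thus below the largest subunit of their polymerase in both libraries and CLSY1/CLSY2 was above it.

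NRPD2/NRPE2 (CSA013061), the second-largest subunit that both polymerases share, was at 3.61 FPKM in replicate 1 and 3.22 FPKM in replicate 2. DMS3 was at 0.811 of it in replicate 1 and at 1.12 times its level in replicate 2, so the order of these genes turned between the libraries. SHH1/SHH2 was below it in both, at 0.762 and 0.919. CLSY1/CLSY2 was above it in both, with ratios of 3.56 and 3.19.

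Among the 37 pathway genes, CLSY1/CLSY2 was at place 8 by mean FPKM, DMS3 at place 27 and SHH1/SHH2 at place 29. In replicate 1 the places were 7, 28 and 31, and in replicate 2 they were 11, 24 and 28. Of the 36 other genes, 25 were below CLSY1/CLSY2 without overlap of the replicates, 5 were above it and 6 overlapped with it. For SHH1/SHH2, 6 genes were below, 26 were above and 4 overlapped, and for DMS3, 8 were below, 22 above and 6 overlapped. These counts depend on how far apart the replicates of each gene lay, and SHH1/SHH2 had the narrowest range. Of all listed genes, 718 others had both values inside the range of CLSY1/CLSY2, 410 inside that of DMS3 and 48 inside that of SHH1/SHH2. Overlap was not counted over all listed genes. By mean FPKM, 72.6% of these were below CLSY1/CLSY2, 43.2% below DMS3 and 40.4% below SHH1/SHH2. The median of the 37 genes was an FPKM of 5.29, so that CLSY1/CLSY2 was in the upper part of the pathway and the other recruitment genes of the trio were in its lower part.

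The pathway genes nearest to each recruitment gene were found by the Euclidean distance of log2 FPKM over both libraries. With 2 libraries this compares levels and no pattern across conditions. Nearest to CLSY1/CLSY2 were SUVH4 (CSA002812), a histone methyltransferase that acts with CMT3, at a distance of 0.17, and DMS4 (CSA023931), a factor that in Arabidopsis acts with several RNA polymerases, at 0.21. Nearest to SHH1/SHH2 were SUVR2 (CSA021101), a SET-domain protein of the RdDM pathway, at 0.19 and the VIM family homolog (CSA002777), which in Arabidopsis recognises hemimethylated DNA, at 0.24. Nearest to DMS3 were DCL2 (CSA001781), a Dicer that cuts double-stranded RNA, at 0.14, and SHH1/SHH2 itself at 0.30.

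These neighbours were close but not singular in the leaf transcriptome. Of all listed genes, 208 were nearer to CLSY1/CLSY2 than SUVH4, 408 were nearer to SHH1/SHH2 than SUVR2 and 214 were nearer to DMS3 than DCL2. DCL2 and DMS3 both had the higher value in replicate 2, with 3.20 and 3.77 FPKM for DCL2.

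**Figure D3:**
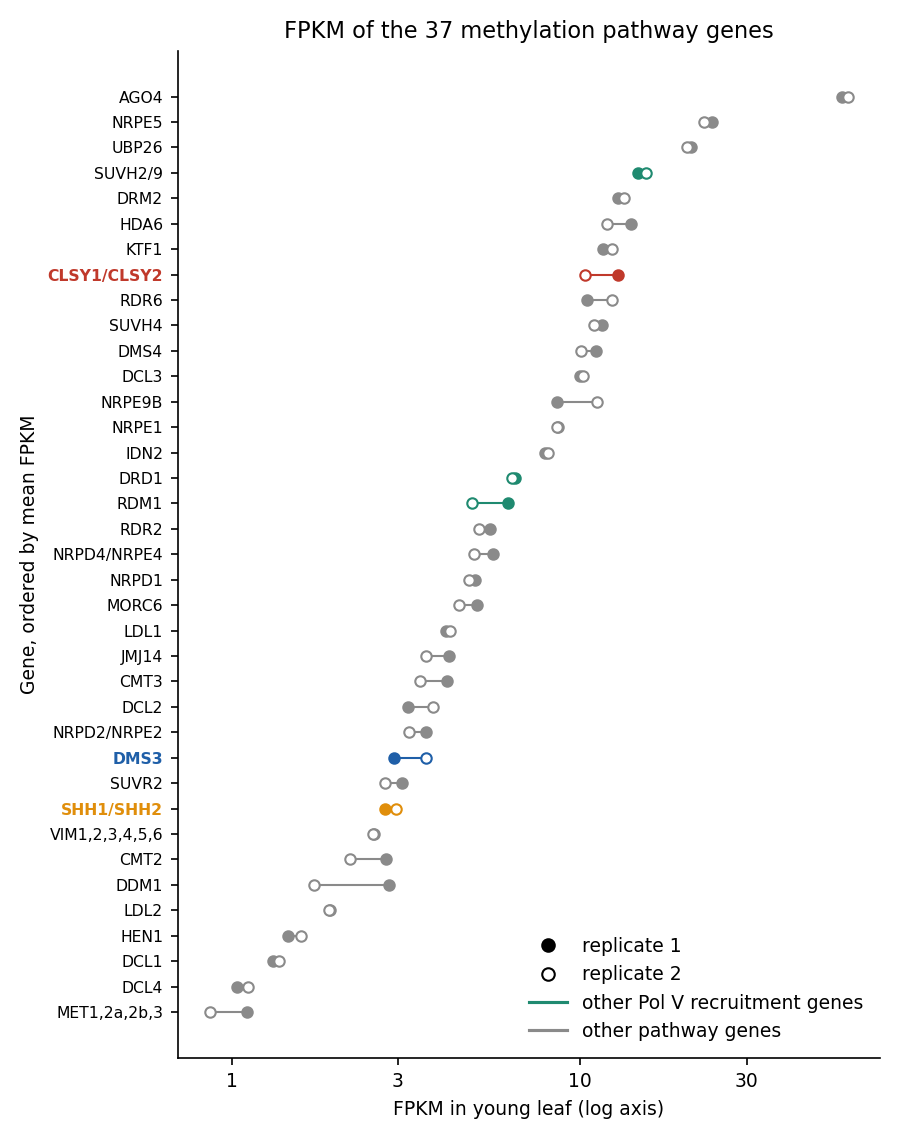
FPKM on a log axis for each of the 37 pathway genes, ordered by mean FPKM, with replicate 1 filled and replicate 2 open and a line joining both. CLSY1/CLSY2 (red) stands at place 8, DMS3 (blue) at place 27 and SHH1/SHH2 (orange) at place 29, and the other Pol V recruitment genes (green) all lie to the right of DMS3.

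The replicates agreed best for SHH1/SHH2. Its values differed 1.08-fold, and the SD was 5.37% of the mean. The values of DMS3 differed 1.23-fold with an SD of 14.8% of the mean, and those of CLSY1/CLSY2 differed 1.25-fold with an SD of 15.5%. On the log2 scale, replicate 2 against replicate 1 was at -0.32 for CLSY1/CLSY2, at 0.30 for DMS3 and at 0.11 for SHH1/SHH2, while the median was 0.01 over the 20355 genes that averaged 1 FPKM or more and were above 0 in both libraries. In FPKM, the shifts of CLSY1/CLSY2 and DMS3 were thus of similar size and of opposite direction. With each library scaled to the same total (TPM), they stayed opposite but were at -0.24 for CLSY1/CLSY2 and 0.39 for DMS3. This scaling moves the log2 ratio of every gene by the same amount.

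None of the 3 genes differed by more than 1.5-fold between the replicates, a limit passed by 25.0% of all listed genes and by 12.6% of those that averaged 1 FPKM or more. A limit of 1.2-fold was passed by 2 of the 3 genes, CLSY1/CLSY2 and DMS3, against 45.7% of all listed genes and 34.6% of those that averaged 1 FPKM or more. With 3 genes, these shares are a description only. Among the 37 pathway genes, 7 passed 1.2-fold, and the single gene past 1.5-fold was DDM1, a chromatin remodeller outside the recruitment step. A larger fold difference than that of CLSY1/CLSY2 was found for 5 of the 36 other pathway genes, than that of DMS3 for 6 and than that of SHH1/SHH2 for 18. Of all listed genes, 23.5%, 31.5% and 68.2% differed more than these genes, in the same order. Those shares are on the log2(FPKM + 1) scale and not by fold, so they are no exact counterpart.

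Low genes vary more between libraries, so each gene was also read against the 1000 genes nearest to it in mean FPKM, on the log2(FPKM + 1) scale. The difference of CLSY1/CLSY2 was 0.29 on this scale, where the median of its 1000 neighbours, with mean FPKM from 10.7 to 12.5, was 0.12, and 18.3% of them differed more. DMS3 differed by 0.23 against a median of 0.17 for genes from 2.99 to 3.58, and 37.2% differed more. SHH1/SHH2 differed by 0.08 against a median of 0.19 for genes from 2.60 to 3.14, and 75.9% differed more. On this scale and for its level, CLSY1/CLSY2 was thus the least repeatable of the 3 genes, although it was the most highly expressed.

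**Figure D4:**
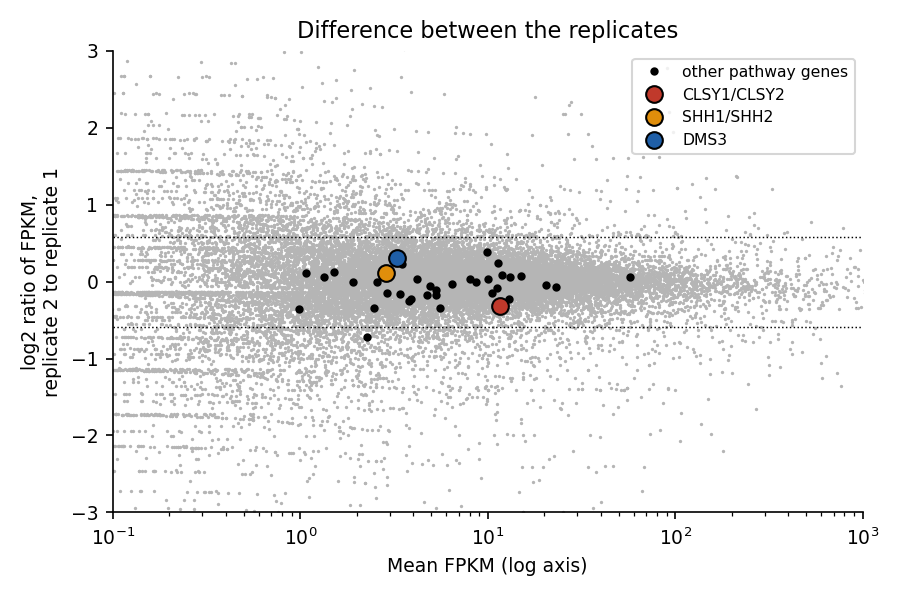
log2 ratio of FPKM in replicate 2 to replicate 1 against mean FPKM on a log axis, for genes above 0 in both libraries (grey), the other pathway genes (black) and the recruitment genes (coloured), with dotted lines at a 1.5-fold difference; genes beyond the axes are not drawn. CLSY1/CLSY2 lies at -0.32, SHH1/SHH2 at 0.11 and DMS3 at 0.30, all inside the dotted lines.

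Few facts of the libraries bear on these values. The depth of the libraries is unknown, so no interval for counting error could be given. All FPKM values together came to 1070174 in replicate 1 and 1010900 in replicate 2. Very low genes give the relative depth: over the 4647 genes between 0 and 1 FPKM in both libraries, the commonest quotient of replicate 1 over replicate 2 was 1.10, as equal small fragment numbers would give if replicate 2 were 1.10 times as deep. Gene lengths were not used here, so the fragments behind each recruitment gene cannot be counted.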

How the data were processed

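RNA-seq of young leaf was analysed in 2 replicates. The authors mapped clean reads to the tea genome with TopHat 2.1.0, retained alignments with a unique position, ran Cufflinks at its defaults and deposited FPKM values for each replicate with their mean. The Cufflinks version and the annotation are not given in the sources used here. Reads shared by near-identical genes were dropped by this procedure, which can lower members of young gene families. The deposited mean was not used for any result.

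From the FPKM values, the mean, the SD, the percent of genes with a lower value and ratios of genes within a library were computed. Differences between replicates used log2 ratios without a pseudocount, or log2(FPKM + 1) with a pseudocount of 1 where genes at 0 entered, which understates the change of low genes. A gene at 0 in 1 replicate counted as past any fold limit. FPKM values are not counts, the depth is unknown, and no count model or test was used. No per-sample column was left out.

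The members, the pathway list and the settings were chosen with earlier results of these data known. The rule for the members names identifiers and roles and has no threshold on expression. Named genes were the 3 members, the other Pol V recruitment genes, the subunits NRPD1, NRPE1 and NRPD2/NRPE2, and the 2 pathway genes nearest to each member. DDM1 was named after its value was seen. Alternatives were TPM (each replicate scaled to 1000000), a geometric mean of FPKM + 0.01, pseudocounts of 1 and 0.1, other sets of ranked genes, other fold limits, 200 in place of 1000 neighbours and leaving out each replicate. Functions were tested on simulated data. Computations ran in Python 3.11.15 (scipy 1.17.1, pandas 2.3.3, numpy 2.4.6), and figures were drawn with matplotlib 3.10.9.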

Additional observations from a re-analysis of the deposited data

How the results depend on the processing

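Under TPM, the level of each of the 3 genes stayed within its replicate SD. TPM scales every gene alike, by 0.934 in replicate 1 and 0.989 in replicate 2, so this says little about single genes. The geometric mean of 2 replicates lies within the SD of their mean by construction. Leaving out either of 2 replicates moves a mean by less than its SD by construction, so it tests nothing: the ratio of CLSY1/CLSY2 to DMS3 then ranged from 2.85 to 4.39. The percent of genes with a lower FPKM depended on the genes ranked. Among genes that averaged 0.5 FPKM or more it was 66.7% for CLSY1/CLSY2, 27.5% for SHH1/SHH2 and 30.9% for DMS3, among those that averaged 1 FPKM or more it was 63.5%, 20.6% and 24.3%, and among genes above 0 in both replicates it was 36.4% for SHH1/SHH2 and 39.3% for DMS3. These sets leave out low genes, which lowers the percent by construction.

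A pseudocount of 1 lowered the ratio of CLSY1/CLSY2 to SHH1/SHH2 to 3.24. The geometric mean of both Pol IV recruitment genes in place of their arithmetic mean lowered their ratio to DMS3 from 2.21 to 1.76. The mean of all 4 Pol V recruitment genes in place of DMS3 lowered the ratio of the Pol IV recruitment genes from 2.21 to 0.950. The replicates of the latter were at 1.03 and 0.877, on both sides of 1. TPM raised the log2 ratio of replicate 2 to replicate 1 of SHH1/SHH2 to 0.19 and that of DMS3 to 0.39. It brought that of CLSY1/CLSY2 to -0.24. TPM moves the log2 ratio of every gene by the same amount, so CLSY1/CLSY2 came no nearer to the other genes. Minus the median log2 ratio of the genes in FPKM, it was at -0.33. A limit of 1.2-fold in place of 1.5-fold raised the number of members past it from 0 to 2 in FPKM. With TPM, CLSY1/CLSY2 stayed within 1.2-fold, through the same common shift. No paired analysis was possible because values of a single group, the RNA-seq libraries, were used. Without the depth, the counting error of SHH1/SHH2 and DMS3, the lower genes, could not be separated from the replicate spread.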
